A study of Mus musculus with 12 samples.

Results

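The genes described here encode the machinery of oxidative phosphorylation, the nuclear subunits of respiratory complexes I to IV and of ATP synthase, with the complex I assembly factors that share their gene names. They were chosen by symbol in the GRCm38 annotation, as protein-coding genes that start with Nduf, Uqcr, Atp5 or Cox4 to Cox8, together with Sdha, Sdhb, Sdhc and Sdhd. The rule found 93 nuclear genes among the 50563 genes of the count table, and 90 of them passed edgeR's filter on low counts. The 3 that did not pass were Cox7b2, Cox8b and Cox8c. The rule also names the 13 protein-coding genes of mitochondrial DNA, which were not analysed here.

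RNA-Seq libraries were made from the brain cortex of 12 aged E4FAD mice, 1 library per mouse, to ask how oral docosapentaenoic acid (DPAn-6), an omega-6 fatty acid, affects the brain in a model of Alzheimer's disease. All mice carried the genotype APOE4+/+, 5FAD-/+, in which human APOE4 replaces the mouse gene and the familial Alzheimer's transgenes are driven in neurons by the Thy1 promoter. The 7 CTRL mice received vehicle and the 5 DPAn-6 mice received DPAn-6 by daily oral gavage for 3 weeks, and both groups were given the same antioxidants. By the labels, 2 CTRL and 2 DPAn-6 mice were aged 12 months, and 5 CTRL and 3 DPAn-6 mice were aged 14 months. Both groups held females and males, and sex is not labelled per mouse.

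Complexes I and II pass electrons from NADH and succinate to ubiquinone, complex III passes them on to cytochrome c, and complex IV passes them to oxygen. Complexes I, III and IV pump protons across the inner mitochondrial membrane, and ATP synthase uses the return of these protons to make ATP. Neurons depend on this supply for ion pumping and synaptic transmission, and the subunits come from both the nuclear and the mitochondrial genome. In a bulk sample, fewer cells of a type and less RNA per cell cannot be told apart.

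Promoters of these genes are known for sites of the nuclear respiratory factors NRF1 and NRF2 (GABP, an ETS factor) and of YY1. RefSeq windows on GRCm38.p6, from 250 bases before to 50 bases after the gene start, were matched for 74 of the 93 genes. The 19 genes without a matched window include Atp5f1, Cox4i1, Cox6a2, Ndufs1, Uqcrb and Uqcrc2. A gene was counted if any of its windows held a motif, and 5 of the 74 have several windows. An NRF1 motif, GCGCAN directly followed by GCGC on either strand, was present in 25.7% of the 74 genes and in 5.19% of all 27025 genes searched. The 27025 genes were not matched to the members for expression. The ETS motif CCGGAAG was present in 24.3% against 9.93%, and the YY1 motif ATGGCGG in 16.2% against 4.69%, on either strand, with no 2 motifs overlapping in any member's window. At least 1 of the 3 motifs was found in 55.4% of the members and 17.3% of all genes. The median log2 fold change of DPAn-6 against CTRL was 0.10 in the 19 tested members with the NRF1 motif and 0.09 in the 53 without it, 0.08 in the 18 with the ETS motif and 0.10 in the 54 without it, and 0.14 in the 12 with the YY1 motif and 0.09 in the 60 without it, with no test of these differences. These matches describe letters in the windows and not bound sites.

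The 250 bases before the start of 4 members follow, with matches to the NRF1 or ETS motif in capitals. Sdha, at chr13:74350241-74350490 on the minus strand, is shown because it was the member whose groups did not overlap, and it holds 3 NRF1 matches. Sdhd, its partner in complex II, at chr9:50603850-50604099 on the minus strand, holds 1 NRF1 and 1 ETS match. Cox6a1, at chr5:115348959-115349208 on the minus strand, is the common form of a complex IV subunit and holds 2 NRF1 matches and 1 ETS match. Cox7a1, at chr7:30183921-30184170 on the plus strand, is a form best known from heart and skeletal muscle and holds 0 matches to the 3 motifs.
Sdha: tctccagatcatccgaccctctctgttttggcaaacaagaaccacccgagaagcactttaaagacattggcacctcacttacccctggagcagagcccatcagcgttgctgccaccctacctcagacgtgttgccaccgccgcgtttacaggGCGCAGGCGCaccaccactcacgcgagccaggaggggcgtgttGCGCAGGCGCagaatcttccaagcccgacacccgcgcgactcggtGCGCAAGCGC
Sdhd: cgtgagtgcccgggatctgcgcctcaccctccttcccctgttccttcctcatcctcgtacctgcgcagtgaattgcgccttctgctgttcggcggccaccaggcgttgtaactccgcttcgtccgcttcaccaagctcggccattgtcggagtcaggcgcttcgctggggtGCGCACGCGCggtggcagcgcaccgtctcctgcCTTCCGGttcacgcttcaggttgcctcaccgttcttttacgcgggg
Cox6a1: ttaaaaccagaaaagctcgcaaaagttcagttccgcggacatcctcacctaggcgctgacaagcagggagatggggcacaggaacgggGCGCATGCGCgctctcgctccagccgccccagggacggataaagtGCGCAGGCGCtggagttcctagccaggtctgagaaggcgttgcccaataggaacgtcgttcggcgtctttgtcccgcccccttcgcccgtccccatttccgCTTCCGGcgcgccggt
Cox7a1: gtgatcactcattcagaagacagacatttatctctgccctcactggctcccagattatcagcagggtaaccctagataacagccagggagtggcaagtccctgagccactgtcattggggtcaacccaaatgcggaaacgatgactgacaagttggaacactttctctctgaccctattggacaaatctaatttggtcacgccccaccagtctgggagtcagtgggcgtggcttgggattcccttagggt

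Total counts per mouse ranged from 15208803 to 26520251. The library CTRL replicate 3 stood apart from the other 11, and the values that it moved most are also given without it. In this library the members took 0.469% of all counts, against 0.695% to 0.796% in the other CTRL mice and 0.711% to 0.791% in DPAn-6. Genes with a longer exon length were relatively high in it. Exon length here is the union of the exons of all transcripts of a gene, and not the length of a single mRNA. The slope of deviation on log2 exon length was 0.18 there, against −0.07 to 0.03 in the other libraries. The markers of the cortex's main cell types were present in every library, with the mean of 10 neuron markers between 9.13 and 9.39 log2 CPM. Log2 CPM is the log2 of the count scaled to a common library total. Means over a list of genes were also scaled by edgeR's TMM factors, and values of single genes were not. Other marker lists were unevenly spread over the groups. All 9 microglia markers tested had negative fold changes, 4 of them with an adjusted p below 0.05 (edgeR), and their mean level was 6.50 to 6.98 in CTRL and 5.86 to 6.37 in DPAn-6. The 6 choroid plexus markers tested had negative fold changes, with mean levels of 2.10 to 6.43 in CTRL and 1.53 to 2.51 in DPAn-6. The oligodendrocyte markers were higher in 6 of 8, at 7.99 to 8.52 in CTRL and 8.31 to 8.47 in DPAn-6, and the neuron markers in 9 of 10. The astrocyte markers were lower in 7 of 8, 3 of them with an unadjusted p below 0.05 (edgeR), at 8.63 to 9.15 in CTRL and 8.55 to 8.88 in DPAn-6. The 7 striatum markers were all higher by the point estimate, with a median log2 fold change of 0.35, at 4.0003 to 5.80 in CTRL and 4.15 to 5.47 in DPAn-6. For 1 of the 7 the unadjusted p was below 0.05. The part of these cell types in the values below was not tested. A fit with Ttr, the main choroid plexus transcript, as covariate was run, but Ttr itself differed between the groups.

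Levels among the members are compared per length, as CPM per kilobase of exon, averaged over the 12 mice. The highest was Cox8a of complex IV at 359, followed by Cox6a1 at 313, Atp5a1 at 242, Atp5b at 221 and Cox4i1 at 211. Atp5a1 and Atp5b encode the alpha and beta subunits of the catalytic head of ATP synthase. The leading gene was Uqcr10 in complex III at 97.2, Ndufb9 in complex I at 103, Sdha in complex II at 88.8 and Ndufaf3 among the complex I assembly factors at 12.0. The median member was at 53.1 in complex III, 38.2 in complex II, 34.0 in complex I, 24.3 in ATP synthase, 21.5 in complex IV and 8.01 among the assembly factors. Complex IV includes tissue-restricted forms, and 8 of its 20 genes were below 5 CPM per kilobase. These levels depend on how many reads could be assigned, and on an exon length that covers all transcripts of a gene. In 27 of the 93 members, at least 10% of the 50-base windows of the transcripts also occur in another annotated gene, 29 overlap an exon on the opposite strand and 5 one on the same strand, and how the counting treated strand is not given in the sources used here.

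No member passed an adjusted p of 0.05 by edgeR's quasi-likelihood test, while 1.55% of the 15688 genes tested did, 0.408% of them higher and 1.14% lower in DPAn-6. The smallest adjusted p among the members was 0.154. By unadjusted p, 6 members were below 0.05 with a higher level in DPAn-6, which is 6.67% of the 90 against 5.51% of all genes, and 2 with a lower level, which is 2.22% against 9.02%. In either direction 14.5% of all genes were below 0.05. The 6 were Uqcrb, Atp5f1, Ndufv2, Ndufb2, Uqcrc2 and Ndufs1, and the 2 were Atp5l and Cox6a2. DESeq2 gave 11 members with an unadjusted p below 0.05, which is 12.2% against 15.6% of all genes. With limma-voom, the study's method, there were 10, which is 11.1% against 14.5% of all genes, and both called 0 members after adjustment. When the group labels were permuted over all splits (exact and two-sided, on mean log2 CPM, smallest possible p 0.00126), 12 of the 90 members were below 0.05, against 15.8% of all genes.

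The fold changes were small and leaned to one side. The median log2 fold change of the 90 members was 0.10, a fold of 1.07, and 70 of the 90 were above 0, while 48.7% of all genes tested were above 0 and their median was −0.0047. The single fold changes ran from −0.49 to 0.32, with a median standard error of 0.12 for single members. Without CTRL replicate 3, the median was 0.04 and 55 of the 90 members were above 0, against 50% of all genes, and 19 members changed sign. With Ttr as covariate, 56 of the 90 were above 0 with a median of 0.03, against 50.2% of all genes above 0. Ttr itself averaged 6.22 log2 CPM in CTRL and 2.19 in DPAn-6. That covariate therefore overlaps with treatment, and the fit cannot separate the part of Ttr from that of treatment.

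**Figure D1:**
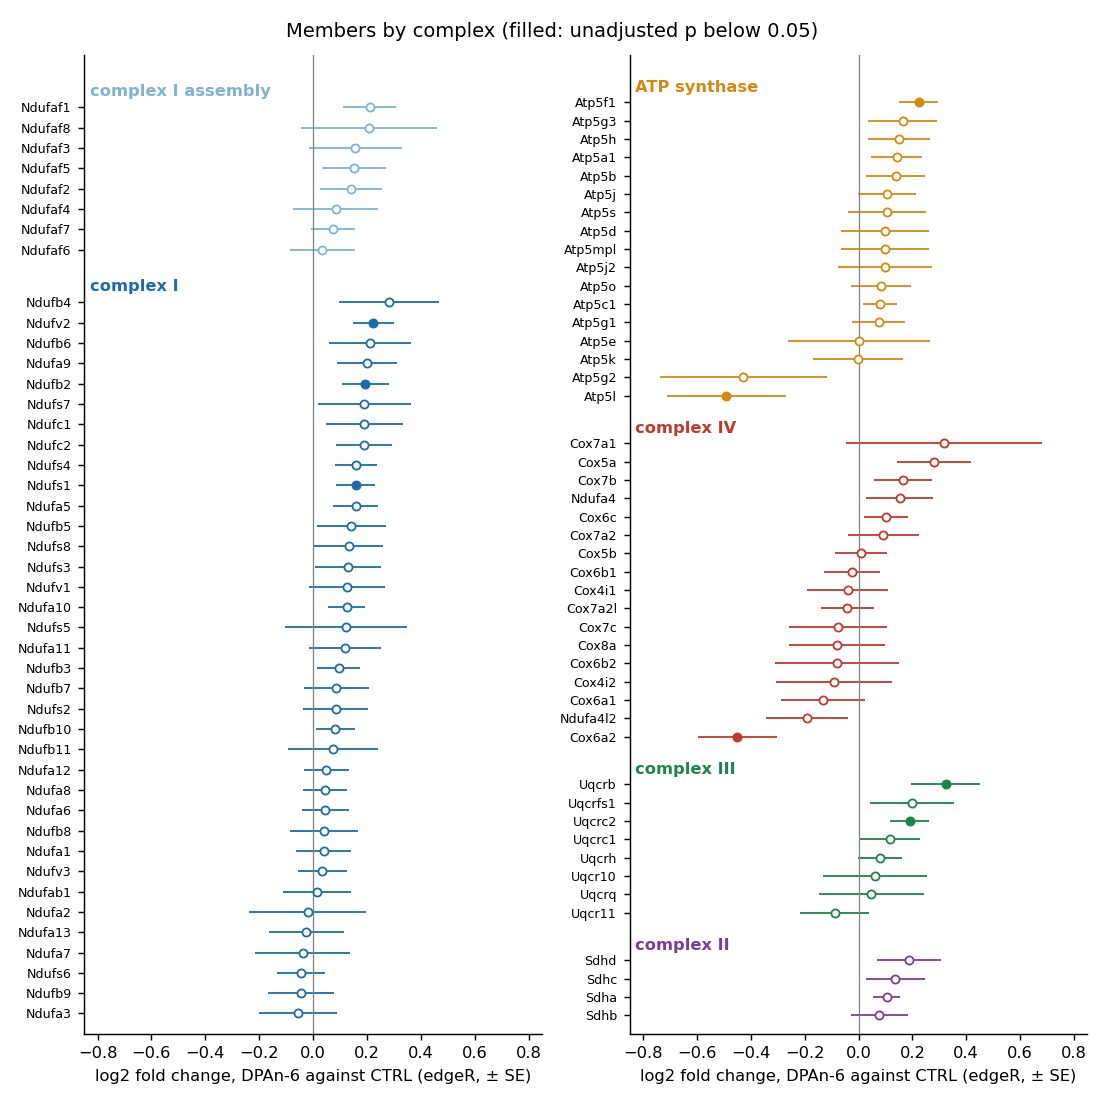
Log2 fold change of DPAn-6 against CTRL for the 90 members tested, by complex, with bars for the standard error (edgeR, 7 CTRL and 5 DPAn-6 mice) and filled circles for an unadjusted p below 0.05. Most circles of complexes I, II and III and of ATP synthase lie right of 0, those of complex IV lie on both sides, and most bars cross 0.

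By exon length, which covers the exons of all transcripts of a gene, the members are mostly short. Their median is 1569 bases against 4586 for all protein-coding genes tested. They were therefore set beside the other protein-coding genes of at most 2634 bases, the length that 75% of the members do not exceed. Of these 2784 other short genes, 59.1% were above 0 and the median was 0.04. For the 11181 longer genes these values were 46.9% and −0.01. The 77 cytosolic ribosomal protein genes, also short, had 49 above 0 and a median of 0.04. Within the members themselves the 23 longer genes leaned more to one side than the 67 short ones, with 22 of 23 above 0 and a median of 0.11 against 48 of 67 and a median of 0.08. Without CTRL replicate 3, the medians of the members, the other short genes and the longer genes were 0.04, 0.01 and 0.00, and the ribosomal protein genes were at −0.01. The longer members were then above 0 in 19 of 23 and the short members in 36 of 67. When the trend of each library on exon length and GC content was removed, the members kept a median of 0.10 with 71 of 90 above 0. The other short genes then had a median of 0.02. With that trend removed and CTRL replicate 3 left out, the medians were 0.04, with 62 of 90 above 0, and 0.03.

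**Figure D2:**
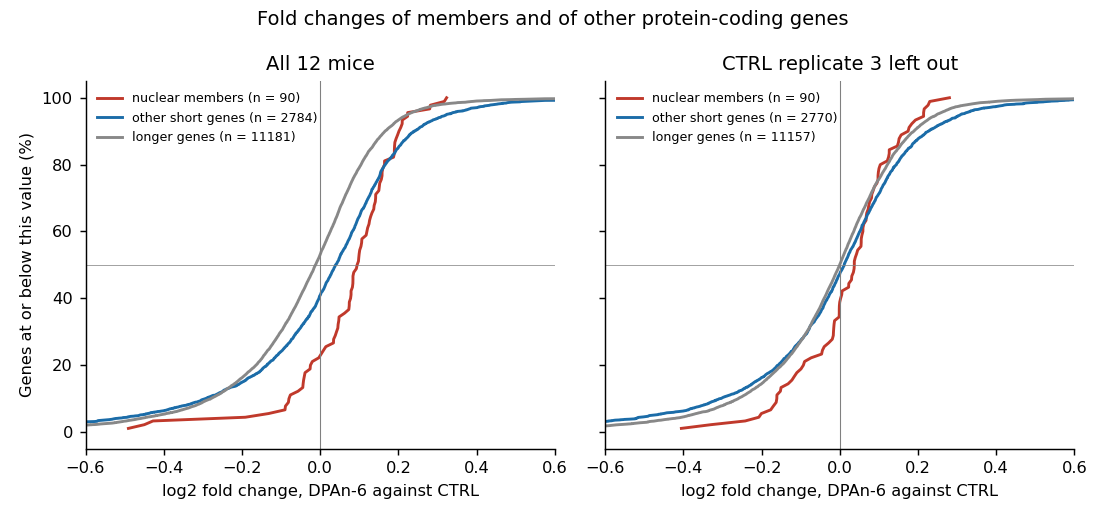
Cumulative share of genes by log2 fold change of DPAn-6 against CTRL, for the nuclear members, other short protein-coding genes and longer protein-coding genes, with all 12 mice on the left and without CTRL replicate 3 on the right. The members' curve lies right of the others with all mice, at a median of 0.10 against 0.04 and −0.01, and nearer to them on the right, at 0.04 against 0.01 and 0.00.

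The members were low together in CTRL replicate 3. Set against each gene's median over the 12 mice, the median deviation of the 90 members in that library was −0.67 on the log2 scale, and it was the lowest of the 12 libraries in 63 of the 90. In the other 11 libraries the median deviation lay between −0.08 and 0.09, and DPAn-6 mice were on both sides of 0, from −0.08 to 0.07. The deviation of CTRL replicate 3 was −0.73 in complex I, −0.72 in ATP synthase, −0.67 in complex II, −0.65 in complex III, −0.51 in complex IV and −0.35 among the assembly factors. Other short genes were at −0.28 in this library and ribosomal protein genes at −0.56. After removal of the trend on length and GC content the other short genes were at −0.02, while the members were still at −0.46 and lowest in 59 of 90. Next to it, CTRL replicate 2 was the lowest library in 12 members.

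**Figure D3:**
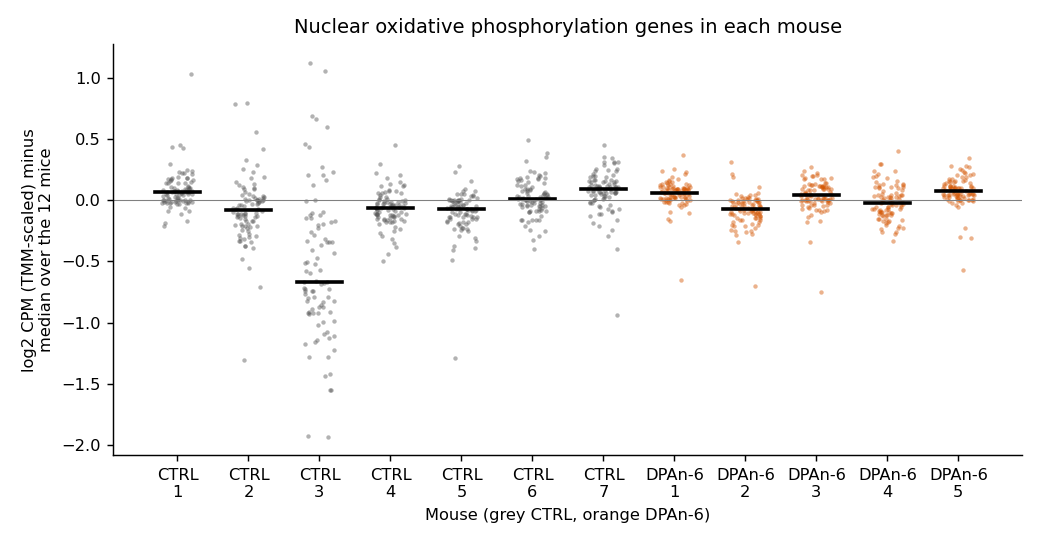
TMM-scaled log2 CPM of each of the 90 tested members minus its median over the 12 mice, with 1 point per member and a bar at the median for each mouse. The bar of CTRL replicate 3 is at −0.67, and the bars of the other 11 mice lie between −0.08 and 0.09.

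Complex I had 36 members tested, of which 30 were above 0 and the median log2 fold change was 0.11. Leaving out CTRL replicate 3 gave 23 above 0 and a median of 0.04. Ndufv2, a core subunit of the NADH-binding module (ENSMUSG00000024099, chromosome 17, 66078638 to 66101559), ranged in CTRL from 6.04 to 6.49 log2 CPM with a median of 6.21. The 5 DPAn-6 mice had 6.57, 6.41, 6.58, 6.46 and 6.44. All DPAn-6 mice lay above the CTRL median and 1 CTRL mouse lay among them, so the groups overlapped. The log2 fold change was 0.22 ± 0.08 (SE), a fold of 1.17, with an adjusted p of 0.168 by edgeR and an exact permutation p of 0.0101.

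Ndufs1, the largest iron-sulfur subunit of the electron input arm, had 6.57 to 7.03 log2 CPM in CTRL with a median of 6.91, and 7.01, 6.98, 7.15, 7.08 and 7.05 in DPAn-6. Only the highest CTRL mouse reached the DPAn-6 values, and the log2 fold change was 0.16 ± 0.07 (SE, edgeR adjusted p = 0.332, exact permutation p = 0.0139). Ndufb2, an accessory subunit of the membrane arm, had 4.11 to 4.66 in CTRL with a median of 4.53, and 4.71, 4.60, 4.84, 4.64 and 4.72 in DPAn-6. Here too only the top of the CTRL range reached the DPAn-6 values, with a log2 fold change of 0.19 ± 0.09 (SE, edgeR adjusted p = 0.312). Ndufb9, the complex I gene with the highest level, had a log2 fold change of −0.04 ± 0.12 (SE), and −0.13 ± 0.06 without CTRL replicate 3. The 7 core nuclear subunits were all above 0 with a median of 0.13, and 6 of the 7 were above 0 with a median of 0.04 without CTRL replicate 3. Of the 29 accessory subunits, 23 were above 0 with a median of 0.08, and 17 with a median of 0.02 without that library.

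The 8 complex I assembly factors, which help to build the complex without staying in it, were above 0 in 8 of 8, with a median of 0.15. Without CTRL replicate 3, 7 of the 8 were above 0 with a median of 0.06, and none had an unadjusted p below 0.05 in either fit. Ndufaf3, the one with the highest level, averaged 4.31 ± 0.50 log2 CPM over the 7 CTRL mice and 4.54 ± 0.14 over the 5 DPAn-6 mice (mean ± SD), with a log2 fold change of 0.16 ± 0.17 (SE), and 0.04 ± 0.08 without CTRL replicate 3. Its low CTRL mouse at 3.22 was CTRL replicate 3, and the other 6 were between 4.32 and 4.71.

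Complex II, succinate dehydrogenase, is also an enzyme of the citric acid cycle, and its 4 subunits are all nuclear. All 4 were above 0, with a median of 0.12. Sdha, the flavoprotein that binds succinate (ENSMUSG00000021577, chromosome 13, 74322254 to 74350280), had 8.36 to 8.53 log2 CPM in CTRL with a median of 8.49. The DPAn-6 mice had 8.55, 8.57, 8.63, 8.61 and 8.59. Each DPAn-6 mouse was above each CTRL mouse, which held for no other member and for 1.73% of all genes in this direction, while no member lay wholly below, against 1.49% of all genes. The distance was small, with a log2 fold change of 0.10 ± 0.05 (SE), a fold of 1.08, an edgeR adjusted p of 0.361 and an exact permutation p of 0.00379. Without CTRL replicate 3, the fold change of Sdha was 0.09 ± 0.04 (SE, edgeR adjusted p = 0.207).

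The fold changes of the other 3 subunits were smaller without CTRL replicate 3. Sdhb, the iron-sulfur subunit, had 5.71 to 6.52 in CTRL with a median of 6.41, and 6.52, 6.39, 6.50, 6.39 and 6.48 in DPAn-6. The log2 fold change of Sdhb was 0.08 ± 0.11 (SE), and 0.00 ± 0.05 (SE) without that library. Sdhc and Sdhd, the subunits that anchor the enzyme in the membrane, had fold changes of 0.14 ± 0.11 and 0.19 ± 0.12 (SE), and 0.06 ± 0.06 and 0.10 ± 0.05 without it. In all 3 genes CTRL replicate 3 was the lowest mouse, at 5.71, 5.51 and 4.73 log2 CPM.

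Complex III had 8 members tested, of which 7 were above 0 with a median of 0.10, and 5 were above 0 with a median of 0.04 without CTRL replicate 3. Uqcrc2, core protein 2 of the complex (ENSMUSG00000030884, chromosome 7, 120635176 to 120659524), had 6.84 to 7.27 log2 CPM in CTRL with a median of 7.16, and 7.26, 7.23, 7.41, 7.37 and 7.33 in DPAn-6. CTRL replicates 2 and 3 were the low mice, at 6.95 and 6.84, and the highest CTRL mouse lay above the 2 lowest DPAn-6 mice. The log2 fold change was 0.19 ± 0.07 (SE), a fold of 1.14, with an edgeR adjusted p of 0.227 and an exact permutation p of 0.0114.

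Uqcrb, a small subunit known as the ubiquinone-binding protein, showed the largest positive fold change of the 90 members, 0.32 ± 0.13 (SE, edgeR adjusted p = 0.249), from only 100 to 313 counts per mouse. It had 2.71 to 3.47 in CTRL with a median of 2.99, and 3.24, 3.34, 3.36, 3.51 and 3.56 in DPAn-6, so that CTRL replicates 1 and 4 lay within the DPAn-6 range. Of its 50-base windows 43.4% occur in other genes, so its count is uncertain. Uqcr10, the complex III gene with the highest level, had a log2 fold change of 0.06 ± 0.19 (SE), and −0.07 ± 0.07 without CTRL replicate 3, and its value in CTRL replicate 3 was 4.41 against 5.78 to 6.04 in the other CTRL mice.

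Complex IV had the one median below 0 among the complexes. Of its 17 members tested 7 were above 0 and the median log2 fold change was −0.04, with all mice and also without CTRL replicate 3, although it was 0.08 in the 14-month mice only. Of the abundant common forms, Cox6a1 was at −0.13 ± 0.16, Cox8a at −0.08 ± 0.18, Cox4i1 at −0.04 ± 0.15 and Cox6b1 at −0.02 ± 0.10 (SE), while other common subunits such as Cox7a2 and Ndufa4 were above 0. CTRL replicate 3 lay far below the rest in these genes. For Cox6a1 it had 6.84 log2 CPM against 7.69 to 8.12 in the other 6 CTRL mice, and the DPAn-6 mice had 7.86, 7.54, 7.74, 7.59 and 7.81.

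Without CTRL replicate 3, Cox6a1 was at −0.24 ± 0.08 (SE, unadjusted p = 0.00526, adjusted p = 0.0673 by edgeR), Cox8a at −0.20 ± 0.09 (unadjusted p = 0.0392) and Cox4i1 at −0.15 ± 0.06 (unadjusted p = 0.0270). Cox4i1 is the common form of the regulatory subunit 4, and in that fit 12.5% of all genes were lower with an unadjusted p below 0.05. Cox5a, an abundant subunit chosen for mention after its values were seen, went the other way, at 0.28 ± 0.14 with all mice and 0.18 ± 0.06 (unadjusted p = 0.00555) without CTRL replicate 3. With the length and GC trend also removed, Cox6a1 was at −0.15 with an adjusted p of 0.0317, the only member called in any of the 28 alternatives, against 10% of all genes in that one.

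Several complex IV subunits have tissue-restricted forms. Cox6a2, the form known from heart and skeletal muscle and, in brain, from parvalbumin interneurons (ENSMUSG00000030785, chromosome 7, 128205435 to 128206387), had 2.39 to 3.18 log2 CPM in CTRL with a median of 2.87, from 71 to 167 counts per mouse. The DPAn-6 mice had 2.56, 2.003, 2.66, 2.49 and 2.41. The DPAn-6 group lay wholly under the CTRL median, with CTRL replicate 5 at 2.39 among its values. The log2 fold change was −0.45 ± 0.15 (SE), a fold of 0.732, with an unadjusted p of 0.00797, an adjusted p of 0.154 by edgeR and an exact permutation p of 0.0177, and it was −0.41 without CTRL replicate 3. Pvalb, the marker of those interneurons, had a log2 fold change of 0.25 ± 0.13 (SE, edgeR adjusted p = 0.412), and Itgad, whose exon overlaps Cox6a2 on the opposite strand, was below the filter on low counts.

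The other restricted forms were low and their differences were within the error. The log2 fold change was −0.09 ± 0.22 (SE) for Cox4i2, the lung form of subunit 4, −0.08 ± 0.23 for Cox6b2, the testis form of subunit 6b, and 0.32 ± 0.37 for Cox7a1, which had 3 to 19 counts per mouse. Cox8b, the muscle form of subunit 8, had 0 to 16 counts and was not tested. Cox7a2 and Cox7a2l, the common form of subunit 7a and its relative that joins complexes III and IV, had 0.09 ± 0.13 and −0.04 ± 0.10, and −0.0011 ± 0.07 and 0.04 ± 0.06 without CTRL replicate 3. Ndufa4, once assigned to complex I and now to complex IV, had 0.15 ± 0.13, and 0.06 ± 0.06 without that library, and its relative Ndufa4l2, known as a hypoxia-inducible gene, had −0.19 ± 0.15.

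ATP synthase had 17 members tested, of which 14 were above 0 with a median of 0.10, and 10 were above 0 with a median of 0.03 without CTRL replicate 3. Atp5f1, subunit b of the stalk that holds the catalytic head in place (ENSMUSG00000000563, chromosome 3, 105942698 to 105960099), had 6.10 to 6.52 log2 CPM in CTRL with a median of 6.36. The DPAn-6 mice had 6.57, 6.48, 6.66, 6.70 and 6.53. Only the highest CTRL mouse, at 6.52, lay above the lowest DPAn-6 mouse. The log2 fold change was 0.22 ± 0.07 (SE), a fold of 1.17, with an unadjusted p of 0.00789, an adjusted p of 0.154 by edgeR and an exact permutation p of 0.00505. Without CTRL replicate 3 it was 0.22 ± 0.07 (edgeR adjusted p = 0.0677), and 38.7% of its windows occur in other genes.

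Atp5l, subunit g in the membrane part, had the largest negative fold change of the 90 members, −0.49 ± 0.22 (SE, edgeR adjusted p = 0.319, exact permutation p = 0.102). It had 1.12 to 2.51 log2 CPM in CTRL with a median of 1.68, and 1.48, 1.44, 1.32, 1.41 and 1.17 in DPAn-6. Its highest value was that of CTRL replicate 3, and 84.8% of its windows occur in other genes, which leaves 40 to 87 counts per mouse to judge it by. Atp5a1, the alpha subunit and the gene with the highest level in this complex, was at 0.14 ± 0.09, and at 0.08 ± 0.06 without CTRL replicate 3. Subunit c of the rotor ring is encoded by 3 genes with the same mature protein, and the log2 fold changes were 0.16 ± 0.13 for Atp5g3, the one with the highest level, 0.07 ± 0.10 for Atp5g1 and −0.43 ± 0.31 for Atp5g2, which had 7 to 24 counts per mouse. With CTRL replicate 3 left out they were 0.07 ± 0.05, 0.12 ± 0.08 and −0.21 ± 0.27, in the same order.

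**Figure D4:**
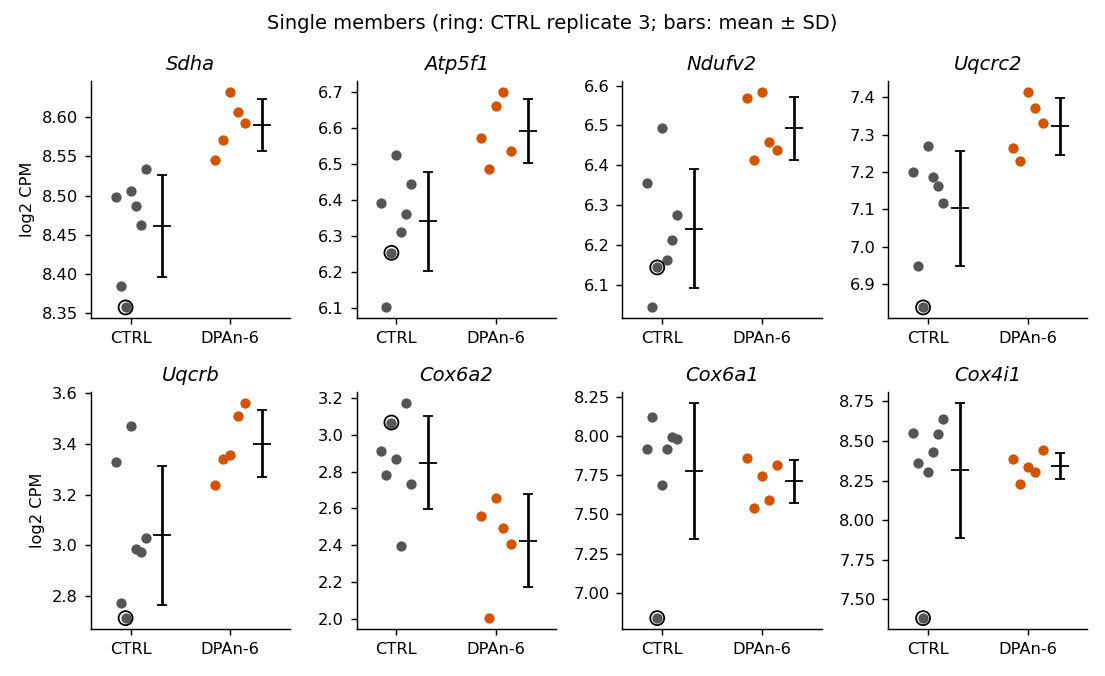
Log2 CPM of 8 members in each CTRL mouse (grey) and DPAn-6 mouse (orange), with the mean ± SD beside each group and a ring around CTRL replicate 3. The 5 DPAn-6 values of Sdha lie above all 7 CTRL values, those of Atp5f1, Ndufv2, Uqcrc2 and Uqcrb overlap the top of the CTRL range, and CTRL replicate 3 lies far below the rest for Cox6a1 and Cox4i1.

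Of the 90 members 53 were above 0 with and without that library. Of the 8 members with an unadjusted p below 0.05 in all mice, 7 also had one without it, all but Atp5l. Without it, 9 members had an unadjusted p below 0.05 with a higher level, which is against 10.7% of all genes, and 5 with a lower level, against 12.5%. After adjustment 0 were called, against 6.10% of all genes. The 5 lower ones were Cox6a2, Cox6a1, Cox8a and Cox4i1 of complex IV and Ndufa7 of complex I.

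**Figure D5:**
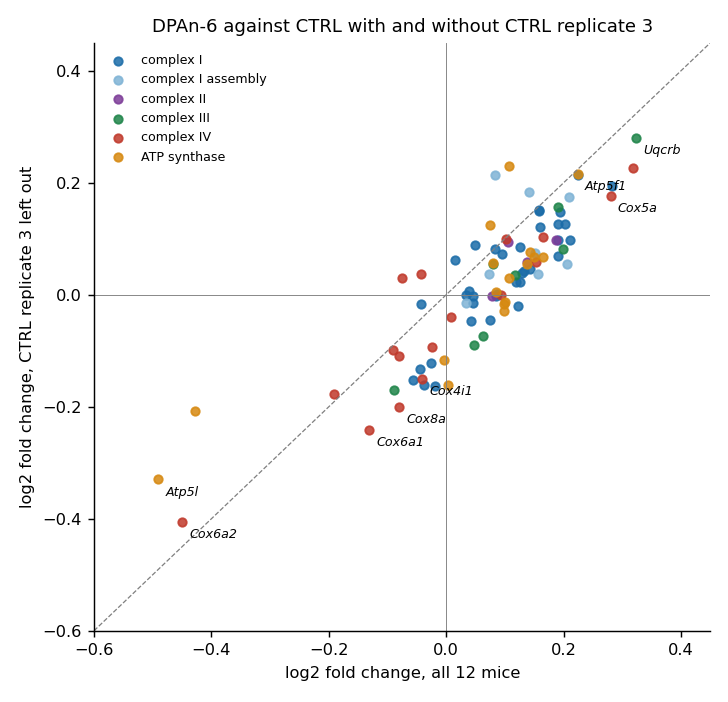
Log2 fold change of DPAn-6 against CTRL for the 90 members with all 12 mice on the horizontal axis and without CTRL replicate 3 on the vertical axis, coloured by complex, with a dashed line where both are equal. Most points lie below the line, with Cox6a1 at −0.13 and −0.24, while Atp5f1 and Cox6a2 stay near it.

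By age the members leaned in opposite directions, with few mice in each group. By the Xist values below, treatment coincided with sex in the 12-month mice and partly in the 14-month mice. Neither the differences within an age nor the test of treatment by age can separate treatment from sex here. Xist, a transcript high in female cells, had 9.65 and 9.42 log2 CPM in the 12-month CTRL mice and 2.07 and 1.48 in the 12-month DPAn-6 mice. At 14 months it had 9.63, 10.57, 1.56, 1.585 and 0.46 in CTRL, and 9.18, 9.60 and 9.15 in DPAn-6. In the 12-month mice, with 2 in each group, 30 of the 90 members had a higher mean in DPAn-6, and the median difference in TMM-scaled log2 CPM was −0.06. In the 14-month mice, 5 CTRL and 3 DPAn-6, 80 of the 90 were higher with a median difference of 0.19. Other short genes had medians of −0.05 and 0.10. CTRL replicate 3 is one of the older mice, and the edgeR fit of the 14-month mice gave a median of 0.19 with 79 of 90 members above 0, against 49.2% of all genes, and 0.09 with 72 of 90, against 52.0%, without that mouse. The test of treatment by age called 0 members and 0.00637% of all genes, with a smallest adjusted p among the members of 0.905. Only Uqcrh, the hinge protein of complex III, and Cox7a1 had an unadjusted p below 0.05 for that difference, which is 2 of 90 members against 4.26% of all genes.

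Of the other genes of the pathway, in lists that exclude the members, none was called with all mice, against 1.55% of all genes, and most lists held more genes above than below 0. In the fit without CTRL replicate 3, 5 genes of these lists were called (edgeR), against 6.10% of all genes. They were Eno1 (adjusted p = 0.0102), Idh2 (0.0108), Mrpl19 (0.0341), Slc25a14 (0.0435) and Ucp2 (0.0471). Of 43 assembly factors of the complexes, 37 were above 0 with a median of 0.10, and 33 with a median of 0.08 without CTRL replicate 3. With an unadjusted p below 0.05 were Tmem70, an assembly factor of ATP synthase, at 0.37 ± 0.12 (SE), and Bcs1l, of complex III, at 0.23 ± 0.10. Of 77 mitochondrial ribosomal protein genes, 68 were above 0 with a median of 0.10, and 60 with a median of 0.08 without CTRL replicate 3. The leading ones were Mrpl19 at 0.24 ± 0.07 (edgeR adjusted p = 0.0917), Mrps33 at 0.39 ± 0.14 and Mrpl48 at 0.14 ± 0.06, with 6 of the 77 below 0.05 by unadjusted p, against 14.5% of all genes.

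Of 28 genes of the citric acid cycle and pyruvate dehydrogenase, 20 were above 0 with a median of 0.08, 5 had an unadjusted p below 0.05 with a higher level, against 5.51% of all genes, and 2 with a lower level, against 9.02%. Idh2, the mitochondrial NADP-dependent isocitrate dehydrogenase, chosen for mention after its values were seen, was at −0.25 ± 0.12 (SE), and at −0.33 ± 0.07 without CTRL replicate 3. The 3 with the smallest p were Idh3a at 0.18 ± 0.06 (SE), Fh1 at 0.21 ± 0.08 and Ogdh at 0.14 ± 0.05, which encode cycle enzymes. Of 11 genes of uncoupling and ATP export 10 were above 0 with a median of 0.18, and 10 with a median of 0.12 without CTRL replicate 3. Slc25a14, a mitochondrial carrier of the uncoupling protein family, was at 0.29 ± 0.09 and the outer membrane channel Vdac2 at 0.22 ± 0.07, while Ucp2, which in brain is high in microglia, was at −0.42 ± 0.13 (edgeR adjusted p = 0.131).

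Of 17 glycolysis genes 12 were above 0 with a median of 0.08, and 10 with a median of 0.0029 without CTRL replicate 3. They were led by Eno1, the enolase, at 1.01 ± 0.26 (SE, edgeR adjusted p = 0.0699). Its near-identical copy Eno1b had −2.47 ± 0.74, so reads may be split between the pair and both values are uncertain. Other values were 0.16 ± 0.05 for Pfkp and −0.21 ± 0.09 for the astrocyte form Aldoc. Of 15 regulators of mitochondrial biogenesis 7 were above 0 with a median of 0.00, and the 2 with an unadjusted p below 0.05 were lower, Ppara at −0.43 ± 0.14 and Ppargc1b at −0.25 ± 0.10. Mitochondrial import had 19 of 21 genes above 0 with a median of 0.10, and 16 with a median of 0.04 without CTRL replicate 3, with Tomm22, a receptor subunit of the outer membrane gate, at 0.23 ± 0.08. The electron carriers and ubiquinone genes had 11 of 15 above 0 with a median of 0.05, and 8 with a median of 0.01 without that library, with Coq7 at 0.19 ± 0.07 and Pdss1 at −0.23 ± 0.11, both of ubiquinone synthesis. For copying and transcription of mitochondrial DNA, 16 of 22 genes were above 0 with a median of 0.06 and none had an unadjusted p below 0.05.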

How the data were processed

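Cortex RNA was poly(A)-selected for KAPA mRNA libraries, and reads were aligned with STAR 2.5.3a to GRCm38 (Ensembl genes). The authors deposited the raw count of each gene in 12 mice, not normalized. Which strand was counted is not given in the sources used here. Gene names, lengths and positions were taken from GENCODE M21, which matched 50339 of 50563 identifiers. The 13 mitochondrially encoded genes were not analysed here, so the planned values for them, for the mitochondrial share of counts and for totals without them were not computed. The members and all lists were chosen with earlier results of these data known. The genes named are members with an unadjusted p below 0.05, the subunits of complex II, the highest gene of each complex, tissue-restricted forms with their common forms, members whose groups did not overlap, and up to 3 genes per pathway list. Any other gene is said to have been chosen after its values were seen or stands beside a result for context.

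Groups were compared in R 4.3.3 with edgeR 4.0.16 (TMM, filterByExpr by group, glmQLFit, glmQLFTest, no covariate), with Benjamini-Hochberg adjustment over the 15688 genes tested. The standard error is the log2 fold change divided by the root of its F statistic. Log2 CPM used a pseudocount of 0.5 and the total on genes. For single genes, a two-sided exact permutation test over 792 splits was added. Alternatives were DESeq2 1.42.0, limma-voom (limma 3.58.1), other scalings and filters, covariates, a replicate block, removal of the trend of each library on length and GC content, and each mouse left out. Fits were also run on simulated counts, with planted changes larger than those of the members and no outlying library or trend on exon length. These runs do not show how the fits perform on shifts as small as those of the members. The mice are separate animals, at 15208803 to 26520251 counts each. The p-values set the difference between the groups against the spread between mice, which in the fit without covariates includes age and sex.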

Additional observations from a re-analysis of the deposited data

Results flagged for a closer look

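Among 66 sets of group values examined, 16 had 1 sample far from the others by Dixon's criterion, which chance gives in about 1 in 20 groups. The sets come from the same mice and are not independent, so the 16 cannot be set against that rate. Of these, 15 were CTRL replicate 3, as the lowest of the 7 CTRL mice. It had a log2 CPM of 5.71 for Sdhb, 5.51 for Sdhc, 4.73 for Sdhd, 5.9997 for Ndufb9, 3.22 for Ndufaf3, 4.41 for Uqcr10, 6.69 for Cox8a, 7.38 for Cox4i1, 6.84 for Cox6a1, 6.29 for Cox6b1, 5.35 for Cox7a2, 5.70 for Ndufa4 and 6.28 for Atp5g3. In the same library the members' share of counts was 0.469% and the mean TMM-scaled log2 CPM of the tested members was 4.71. The other was DPAn-6 replicate 3, the lowest of its group for Sdhd at 5.64, where the gap is 0.836 of a range that spans only 0.08 on the log2 scale.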

How the results depend on the processing

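The median log2 fold change of the 90 members stayed above 0 in all 28 alternatives, from 0.03 with Ttr as covariate to 0.19 in the 14-month mice only, and from 0.04 to 0.13 with each mouse left out. No member was called in 27 of the 28, and 1 was called (Cox6a1) without CTRL replicate 3 and with the trend of each library on length and GC content removed, a setting chosen after the data were seen. The number of members with an unadjusted p below 0.05, 8 with all mice, was 5 with age as covariate, 2 with Ttr, 3 in the 14-month mice only and 17 with the trend removed and a replicate block, and it ran from 4 (without DPAn-6 replicate 3) to 14 (without CTRL replicate 3) with each mouse left out. Among all genes the share below 0.05 was 14.5% with all mice, 12.96% with age, 6.39% with Ttr, 8.96% in the 14-month mice, 17.5% with the trend removed and the block, 11.1% without DPAn-6 replicate 3 and 23.1% without CTRL replicate 3, against 8.89%, 5.56%, 2.22%, 3.33%, 18.9%, 4.44% and 15.6% of the members. By the exact permutation test the number was 12 with all mice, where 15.8% of all genes were below 0.05. It was 3 in the 14-month mice and 7 to 17 with each mouse left out, for which the share of all genes by this test was not computed. The calls over all genes, 243 with all mice, were 696 by DESeq2, 17 with Ttr, 9 in the 14-month mice, 79 with the replicate block, 556 with the trend removed, 1567 with the trend and CTRL replicate 3 both removed, and from 64 (without DPAn-6 replicate 3) to 953 (without CTRL replicate 3) with each mouse left out. The cause was not tested.

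The median of complex III was −0.0051 with Ttr. The median of complex IV was 0.077 in the 14-month mice, 0.088 there without CTRL replicate 3, 0.046 with the replicate block and 0.020 with the block and the trend removed, and from −0.040 to 0.0032 with each mouse left out. Of the 30 named members tested, 18 kept their direction in every alternative and 12 did not. In the 14-month mice the log2 fold change was 0.033 for Ndufb9, 0.021 for Cox8a, 0.080 for Cox4i1, 0.077 for Cox4i2 and 0.044 for Cox6b1, and there without CTRL replicate 3 it was 0.095 for Cox4i2 and 0.11 for Cox7a2l. With the replicate block it was 0.059 for Ndufb9, 0.046 for Cox8a, 0.10 for Cox4i1 and 0.038 for Cox6b1, and with the block and the trend removed 0.0098, 0.013, 0.020 and 0.041 in the same order. With the trend removed Cox6b1 was at 0.0047, and without CTRL replicate 3 as well Cox7a2l was at 0.044 and Ndufa4 at −0.042. With Ttr it was −0.040 for Uqcr10, 0.36 for Cox6b2, −0.45 for Cox7a1 and −0.044 for Cox7a2. With each mouse left out it ran from −0.0014 to 0.11 for Sdhb, −0.13 to 0.0074 for Ndufb9, −0.073 to 0.11 for Uqcr10, −0.20 to 0.0032 for Cox8a, −0.15 to 0.016 for Cox4i1, −0.093 to 0.026 for Cox6b1, −0.16 to 0.067 for Cox6b2, −0.0011 to 0.15 for Cox7a2 and −0.074 to 0.037 for Cox7a2l.

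No mouse pair is stated. The correlations of the deviations of same-numbered mice of the 2 groups ran from −0.125 to 0.226, which cannot show whether mice were paired. The replicate block gave a median of 0.18 for the members, with 79 of 90 above 0, against 50.4% of all genes. CTRL replicates 6 and 7 have no same-numbered DPAn-6 mouse, so they do not enter that estimate. Their mean TMM-scaled log2 CPM over the tested members was 5.28 and 5.34, against 5.18 for the CTRL group. Values that needed the mitochondrially encoded genes were not run. The groups hold 7 and 5 mice of 2 ages, and low forms such as Cox7a1 rest on a few counts. Sequence shared with other genes, in at least 10% of the windows, limits 27 of the 93 members. Among them are Atp5l, Uqcrb, Atp5f1, Cox5a, Uqcrc2, Ndufb9, Cox4i1 and Cox6a1, the last at 12.3%.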
